A study of Mus musculus with 13 samples.

Results

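The open promoters of silent genes in mouse embryonic stem cells were 1029 of the 18310 regions of a unified list of open chromatin, and they lay at the starts of 980 genes. They were selected on 2 measured values. The region had to lie within 1000 bp of a gene start, and every gene starting within that distance had to have a mean below 1 CPM (counts scaled to a common library total of 1e6) over 5 mRNA libraries, with all of them on one strand. Of the remaining regions, 5468 lay at starts of genes on one strand that all averaged 1 CPM or more (called expressed here), 42 at silent genes on both strands, 704 at expressed genes on both strands, 380 at silent and expressed genes together, and 10687 had no gene start within 1000 bp. Because openness and low mRNA chose the members, neither is a finding about them.

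All libraries came from the E14 line, embryonic stem cells of 129/Ola background grown in serum with leukemia inhibitory factor, with no treatment or genotype contrast. Low-input ATAC&mRNA-seq takes both readouts from one batch of cells: the transposase Tn5 cuts open chromatin in permeabilised cells, and mRNA is then caught from the lysate on oligo(dT) beads. It was done in 2 experiments on different days, with 10000 and 20000 cells in experiment 1 and 5000, 10000 and 20000 cells in experiment 2, which gave 5 ATAC peak lists and 5 mRNA libraries. Omni-ATAC-seq, an ATAC protocol without mRNA, was done once each on 5000, 10000 and 50000 cells as a benchmark. Total counts ran from 13727122 to 20426252 per mRNA library, so 1 CPM stood for 13.7 to 20.4 counts, and the depth of the ATAC libraries is unknown. All 10 embryonic stem cell markers checked averaged 13.8 CPM or more. Of the lists for other cell types, 1 of 8 primitive endoderm and 1 of 5 fibroblast markers reached 10 CPM, and none of the mesendoderm, neural, trophoblast and two-cell-like markers did.

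In vertebrate genomes most promoters rich in the dinucleotide CpG stay free of nucleosomes to some degree even where little mRNA is made. In embryonic stem cells many promoters of developmental regulators are known to carry activating and repressive histone marks together and are called poised. Histone marks were not measured here, and an ATAC peak shows accessibility, not its cause. Replication-dependent histone mRNAs end in a stem-loop without a poly(A) tail, and miRNAs and most small nuclear RNAs are not caught as poly(A) RNA, so a low count of these genes on oligo(dT) beads is not a measure of their transcription.

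The upstream sequences of 5 of the member promoters are shown because their open regions reach into the stretch before the start. Each is the 250 bases before the RefSeq start in GRCm38.p6, written 5′ to 3′ along the gene, and the capitals mark bases inside the deposited open region. They belong to H1f2 (a linker histone), Tsga10 (a testis protein gene), Zfp784 (a zinc finger protein gene), Adamts17 (an extracellular protease gene) and Rab39 (a small GTPase gene), each the first gene of its class by the naming rule.
H1f2, chr13:23738557-23738806, + strand: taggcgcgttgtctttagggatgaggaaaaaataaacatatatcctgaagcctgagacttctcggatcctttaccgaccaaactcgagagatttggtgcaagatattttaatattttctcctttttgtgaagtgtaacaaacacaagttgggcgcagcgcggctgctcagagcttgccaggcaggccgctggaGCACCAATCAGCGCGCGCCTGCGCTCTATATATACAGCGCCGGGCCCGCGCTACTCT
Tsga10, chr1:37865299-37865548, - strand: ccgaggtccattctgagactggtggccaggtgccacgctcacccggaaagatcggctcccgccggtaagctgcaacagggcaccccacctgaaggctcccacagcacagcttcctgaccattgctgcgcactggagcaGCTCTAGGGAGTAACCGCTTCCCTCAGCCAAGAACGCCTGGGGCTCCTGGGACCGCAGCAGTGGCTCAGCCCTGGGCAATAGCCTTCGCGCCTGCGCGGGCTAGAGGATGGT
Zfp784, chr7:5038447-5038696, - strand: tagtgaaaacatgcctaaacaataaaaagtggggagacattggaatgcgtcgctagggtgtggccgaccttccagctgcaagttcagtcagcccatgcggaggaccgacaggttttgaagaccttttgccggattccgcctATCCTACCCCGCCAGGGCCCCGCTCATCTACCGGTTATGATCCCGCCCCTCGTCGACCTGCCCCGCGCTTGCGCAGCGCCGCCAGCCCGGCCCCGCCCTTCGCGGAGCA
Adamts17, chr7:66839485-66839734, + strand: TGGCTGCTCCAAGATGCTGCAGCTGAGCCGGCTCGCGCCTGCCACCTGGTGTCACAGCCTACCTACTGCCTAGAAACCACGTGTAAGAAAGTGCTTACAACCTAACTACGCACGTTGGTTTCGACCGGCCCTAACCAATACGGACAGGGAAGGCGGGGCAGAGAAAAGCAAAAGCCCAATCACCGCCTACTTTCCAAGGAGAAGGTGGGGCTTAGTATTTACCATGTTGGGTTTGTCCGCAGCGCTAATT
Rab39, chr9:53706233-53706482, - strand: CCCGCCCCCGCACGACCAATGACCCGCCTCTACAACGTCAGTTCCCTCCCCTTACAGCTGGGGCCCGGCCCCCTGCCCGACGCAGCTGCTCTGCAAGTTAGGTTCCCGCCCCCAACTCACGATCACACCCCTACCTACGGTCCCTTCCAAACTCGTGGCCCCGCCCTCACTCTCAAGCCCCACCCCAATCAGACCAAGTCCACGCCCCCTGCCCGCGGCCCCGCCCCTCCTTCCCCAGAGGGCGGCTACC
The open region covered 57 of these bases at H1f2, 112 at Tsga10, 109 at Zfp784, and all 250 at both Adamts17 and Rab39. The CCAAT motif occurred 1 time in the H1f2 sequence, 1 time in that of Zfp784 and 2 times in each of those of Adamts17 and Rab39, on either strand. GGGCGG occurred 5 times in Rab39 and 2 times in Zfp784. The windows of H1f2, Tsga10 and Adamts17 held no GGGCGG, and none of the 5 held TATAAA.

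Among the miRNA members were genes of 2 clusters. Mir302a, Mir302b, Mir302c, Mir302d and Mir367 shared a region at chr3:127544748-127545070 (mm10), which overlapped a peak in all 8 lists. Mir293, Mir294 and Mir295 shared chr7:3221178-3221313, present in 5 lists, and Mir294 and Mir295 also lay within 1000 bp of chr7:3221550-3222091, present in all 8. Both clusters are known as the miRNAs abundant in pluripotent cells. The mature sequences below are those matched for the 3p arms, of which 4 share a seed (bases 2 to 8, in capitals), AAGUGCU.
miR-302b-3p: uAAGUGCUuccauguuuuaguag
miR-302d-3p: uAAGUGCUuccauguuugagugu
miR-294-3p: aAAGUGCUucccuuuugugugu
miR-295-3p: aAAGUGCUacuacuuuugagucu
miR-302c-3p: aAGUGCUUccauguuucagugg
miR-293-3p: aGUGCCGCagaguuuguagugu
miR-367-3p: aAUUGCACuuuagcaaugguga
The seed of miR-302c-3p, AGUGCUU, is the same run moved by 1 base. A start in the table is the 5′ end of the hairpin for these genes, not of the primary transcript. Of the 8 genes of the clusters, only Mir302d had any count in the mRNA libraries, at a mean of 0.0358 CPM. The 48 member miRNA genes were 4.09% of the 1175 silent miRNA genes, beside 7.56% of all silent genes. Of the 48, 38 had 0 counts in all 5 libraries, and 43 were matched to RefSeq mature sequences.

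The share of silent genes with an open promoter ran from 0.131% to 43.8% over the gene classes. Of the 12958 silent genes of the count table, 10.9% had any region of the unified list within 1000 bp and 7.56% were genes of the member promoters. Replication-dependent histone genes stood highest, with 21 of 48 silent genes (43.8%, 95% Wilson interval 30.7 to 57.7). Zinc finger protein genes followed with 30 of 111 (27.0%, 19.6 to 36.0), then neuronal and ion channel genes with 68 of 415 (16.4%, 13.1 to 20.3) and developmental signalling genes with 22 of 150 (14.7%, 9.89 to 21.2). Olfactory, vomeronasal and taste receptor genes stood lowest, with 2 of 1528 (0.131%, 0.0359 to 0.476). Classes were built from gene symbols, the intervals cover counting error only, and no class was tested against the others.

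**Figure D1:**
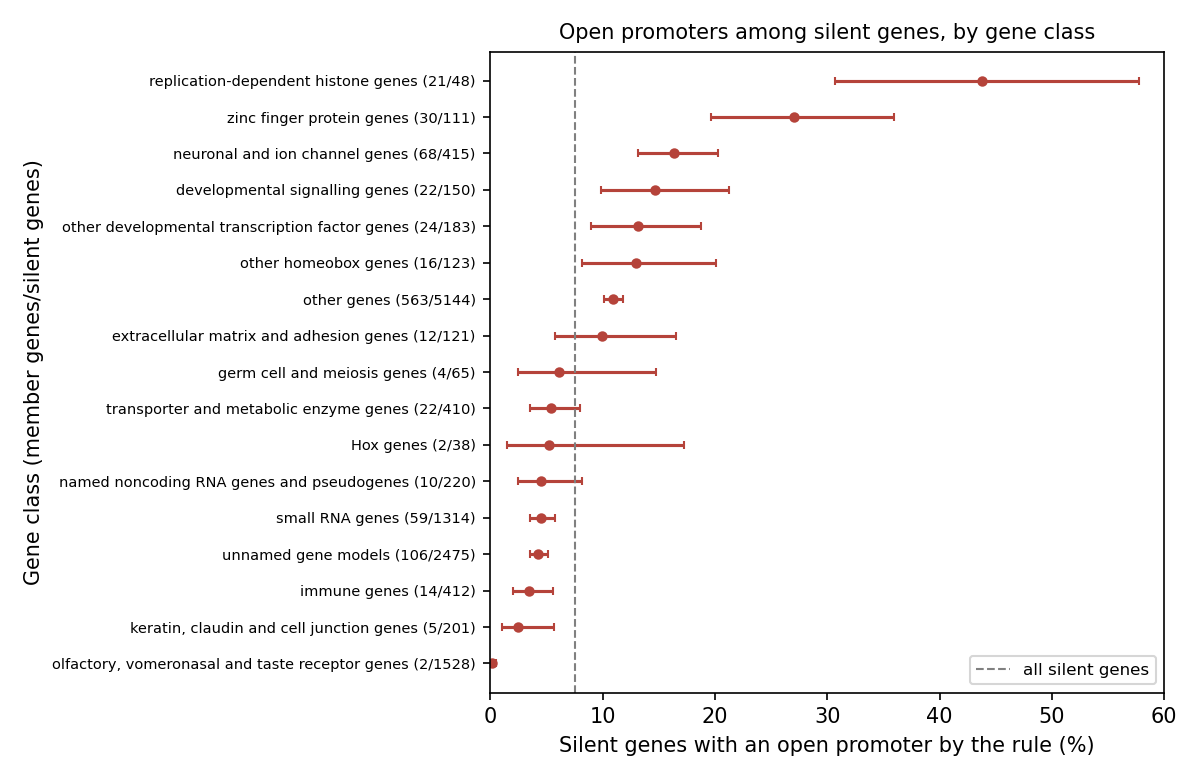
Share of silent genes with an open promoter by the rule (x axis, %) in each gene class (y axis, with member genes and silent genes in brackets). Points are shares, bars 95% Wilson intervals, and the dashed line is the 7.56% of all silent genes; histone genes lie highest at 43.8%.

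The classes also differed in their low counts. Among silent genes with a mean of 0.1 to 1 CPM, 731 of 4528 (16.1%) were members. In that range the share was 46.3% of 41 histone genes, 33.3% of 84 zinc finger genes, 22.3% of 215 neuronal genes, 20.2% of 94 signalling genes, 14.3% of 56 other homeobox genes, 14.3% of 14 Hox genes, 13.5% of 96 other developmental transcription factor genes and 1.49% of 67 olfactory, vomeronasal and taste receptor genes. Over all genes, the share with a region rose with mRNA level, from 3.25% (2.77 to 3.80) of the 4584 genes with 0 counts to 30.9% (28.5 to 33.5) of the 1270 genes at 0.5 to 1 CPM and 36.5% (33.9 to 39.2) of the 1264 genes at 1 to 2 CPM. The 2 intervals on either side of the 1 CPM limit do not meet. The members had a median mean of 0.301 CPM, against 0.0268 CPM for the 11552 silent genes with no region. Of the members, 71 of 980 (7.24%) had 0 counts in every library, against 4435 of 11552 (38.4%) of the silent genes with no region.

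**Figure D2:**
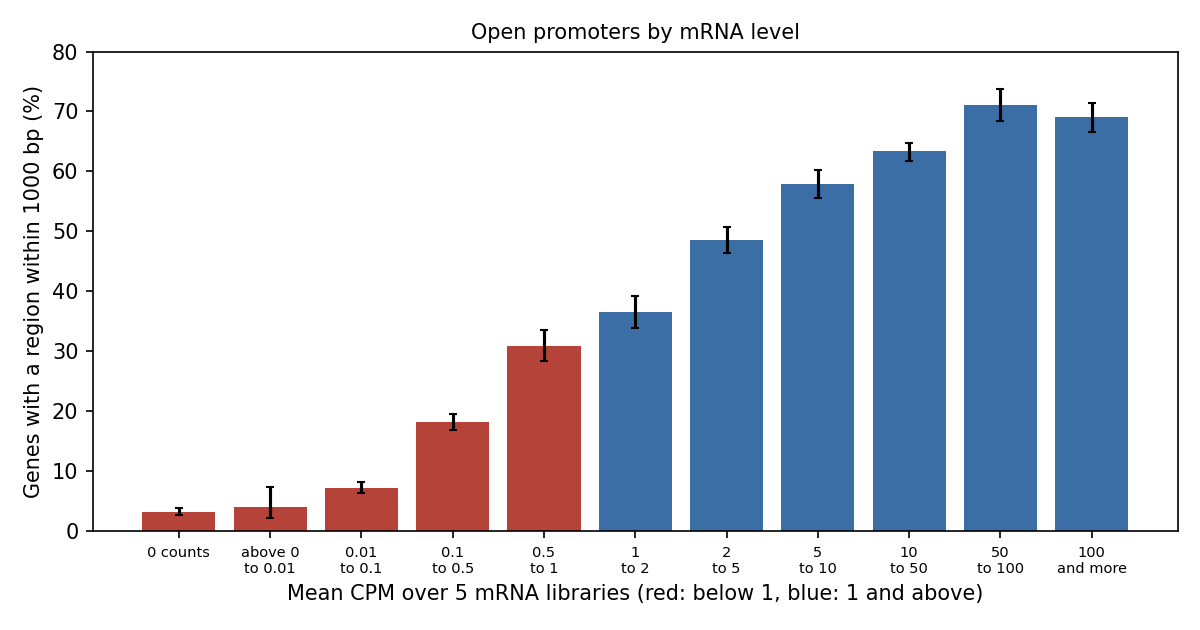
Share of genes with a unified region within 1000 bp of their start (y axis, %) by mean CPM over the 5 mRNA libraries (x axis, red below and blue from 1 CPM). Bars are shares with 95% Wilson intervals. They rise from 3.25% at 0 counts to 30.9% at 0.5 to 1 CPM and 36.5% at 1 to 2 CPM. The highest bar is 71.1% at 50 to 100 CPM.

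At the limit itself, the members with the highest means were H4c3 at 0.996 CPM, Cdhr1 at 0.995 CPM and Zfp324 at 0.993 CPM. The genes of open promoters just above it were Fam214a at 1.001 CPM, Slc5a5 at 1.002 CPM and Hk1os at 1.003 CPM. On the distance side, the farthest member region lay 998 bp from its gene start, and the nearest region left out lay 1001 bp away.

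Developmental regulators formed a small part of the members. Hox genes, other homeobox genes and other developmental transcription factor genes together held 344 silent genes, of which 42 (12.2%, 9.16 to 16.1) were members, beside 7.56% of all silent genes. In the range of 0.1 to 1 CPM the share was not higher, with 23 of 166 (13.9%) beside 16.1% of all silent genes in that range. No interval was computed there, so a lower share is not shown either. Of the 38 silent Hox genes, the body-axis patterning factors, only Hoxa7 and Hoxc13 were members. The 16 other homeobox members were Barhl1, Barx2, Dlx6, Emx1, Hlx, Hmx1, Irx3, Irx6, Isl1, Mnx1, Nkx6-1, Onecut2, Pdx1, Pitx3, Six2 and Six6. Their mean levels ran from 0 CPM in Dlx6 and Mnx1 to 0.558 CPM in Pitx3, so none came near the limit.

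Peaks in single lists lay at many of these genes. Intervals of 9 bp, the shortest, made up from 24.4% (Omni-ATAC, 50000 cells) to 59.2% (Omni-ATAC, 5000 cells) of a list, and intervals carried no score. A peak within 1000 bp of the start was found in at least 1 of the 8 lists for 254 of the 344 silent developmental transcription factor genes (73.8%), against 4509 of all 12958 silent genes (34.8%). For 147 of the 344 genes (42.7%) such a peak was present in only 1 or 2 lists, against 15.0% of all silent genes. The Omni-ATAC list of 50000 cells, the longest, was the only one with a peak for 85 of the 147. Without that list a peak was found for 169 of the 344 genes (49.1%), against 25.9% of all silent genes. For Hox genes 24 of 38 had a peak in some list and 18 of 38 in only 1 or 2, of which 9 were in Omni-ATAC of 50000 cells alone. Every region of the unified list was covered by at least 3 lists, since keeping bases covered by 3 or more lists, joining gaps of up to 200 bp and dropping widths under 50 bp returned all 18310 deposited regions exactly, with 41 more.

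Among homeobox members, Nkx6-1, a regulator of pancreatic and spinal cord fate, had 1 count in all. Its level was 0.0645 CPM in experiment 2 with 10000 cells and 0 in the other 4 libraries. Its region, chr5:101665341-101665547, was present in all 8 lists and centred at -733 bp, upstream of the start. Hmx1, a regulator of sensory organ development, had 0 and 0.535 CPM in experiment 1 with 10000 and 20000 cells, and 0, 0.258 and 0.0490 CPM in experiment 2 with 5000, 10000 and 20000 cells. Its 77 bp region was also in all 8 lists. Emx1, a forebrain regulator, ranged from 0 to 0.358 CPM, and its region was missing only from the list of experiment 2 with 5000 cells. For all 3 genes the values of the 2 experiments overlapped. Mnx1, a motor neuron regulator, had 0 counts and the least recovered homeobox region, present in 3 lists.

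Of the other developmental transcription factor genes, Snai2, Ets1 and Gata3 were named for regions in all 8 lists, which held for 4 of the 25 regions of the class (16%), beside 24.5% of all member regions. Snai2, a repressor active in epithelial to mesenchymal transition, had 0.291 and 0.468 CPM in experiment 1 and 0, 0.516 and 0.636 CPM in experiment 2. Ets1, a transcription factor of lymphoid and endothelial cells, reached at most 0.0979 CPM. Gata3, a factor of T cells and trophoblast, ranged from 0 to 1.03 CPM and its region was centred at -1061 bp from the start. Among signalling genes, Efnb2, Fzd4 and Wnt8a, which encode an ephrin, a Wnt receptor and a Wnt ligand, had regions in all 8 lists and means of 0.525 ± 0.687, 0.580 ± 0.337 and 0.346 ± 0.253 CPM (SD, n = 5).

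The 21 histone members had means from 0.00979 CPM in H2ac19 to 0.996 CPM in H4c3, and none was at 0 in all libraries. H1f2 had 0 and 0.468 CPM in experiment 1 and 1.07, 0.838 and 0.294 CPM in experiment 2, and its region of 1061 bp, chr13:23738750-23739810, was the widest of all members. H1f5 had 2.26 CPM in experiment 1 with 10000 cells and 0.387 to 0.587 CPM in the other 4 libraries. H2bc18 and H3c13 shared a region on chromosome 3 that was present in all 8 lists. No silent histone gene had a peak in only 1 or 2 lists, and 45 of the 48 had one in at least 1 list. Many histone genes are near-identical copies, so their counts are uncertain where reads match several of them.

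Zinc finger protein genes encode DNA-binding proteins, many of them repressors. Zfp784 had counts in 2 libraries, at 0.0669 CPM in experiment 1 and 0.343 CPM in experiment 2, both with 20000 cells. Zfp174 ranged from 0 to 0.656 CPM and Zfp273 from 0.451 to 2.03 CPM, and all 3 regions were in all 8 lists. Of neuronal genes, Trpm3 (a cation channel), Chgb (a secretory granule protein) and Lrfn2 (a synaptic adhesion protein) had regions in all 8 lists, as did 8 of the 71 regions of the class (11.3%), beside 24.5% of all member regions. Trpm3 had 1.81 CPM in experiment 2 with 10000 cells and at most 0.268 CPM elsewhere, and Chgb at most 0.294 CPM in any library. Immune members were few, 14 of 412, with the cytokine receptor genes Ifngr1 and Il4ra in all 8 lists. Tsga10, Zpbp and Msh5, germ cell and meiosis genes, all had regions in all 8 lists, and Tsga10 was the steadiest of them at 0.260 ± 0.0670 CPM (SD, n = 5).

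By RefSeq biotype, 823 of the 980 member genes were protein-coding, 84 long noncoding RNA genes, 48 miRNA genes, 14 transcribed pseudogenes and 8 small nuclear RNA genes. These were 8.71% of silent protein-coding genes, 4.51% of silent long noncoding RNA genes, 4.09% of 1175 silent miRNA genes, 4.90% of 286 silent transcribed pseudogenes and 8 of the 16 silent small nuclear RNA genes. The gene model of 86 members (8.78%) overlapped another on the same strand, against 10.2% of silent genes with no region, and the use of overlapping genes in counting is not given in the sources used here. Overlap with a model on the other strand was found in 147 members (15.0%, 12.9 to 17.4) and 12.1% (11.5 to 12.7) of silent genes with no region. Adnp, a chromatin remodelling factor gene, and Scamp3, a membrane trafficking gene, were among these 86, chosen after their values were seen, at means of 0.424 and 0.294 CPM. A start inside the body of an expressed gene occurred in 56 members (5.71%) and in 8.87% of silent genes with no region. A RefSeq start of an expressed gene lay within 1000 bp of 15 member regions (1.46%).

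Member regions were narrower than expressed ones and lay less often over the start. The median width was 155 bp (quartiles 103 and 247), against 203 bp (128 and 321). The start was covered by 396 of 1029 member regions (38.5%, 35.6 to 41.5) and by 3199 of 5468 expressed regions (58.5%, 57.2 to 59.8). The midpoint lay more than 500 bp from the nearest start in 199 member regions (19.3%) and 446 expressed regions (8.16%). Regions within a genome are not replicates, so these are descriptions without a test.

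**Figure D3:**
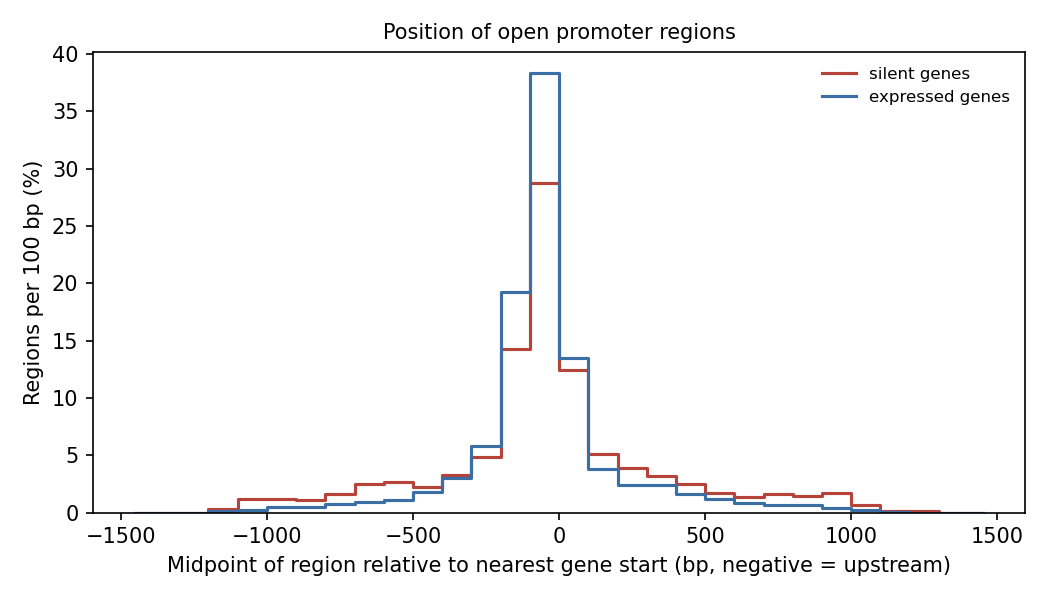
Distance of region midpoints from the nearest gene start (x axis, bp, negative upstream) as a share of regions per 100 bp (y axis, %), for silent (red) and expressed (blue) genes. Both peak just upstream of the start, and 19.3% of silent against 8.16% of expressed regions lie beyond 500 bp.

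Promoter composition was read from RefSeq windows of 250 bases before to 50 after a start, for the 641 of 800 protein-coding member genes outside chromosome 18 that had one. High-CpG promoters (observed to expected CpG of at least 0.75 and GC of at least 55%) made up 34.2% of member promoters, 53.0% of the 4063 expressed ones and 32.0% of the 16184 of all protein-coding genes. Low-CpG promoters (ratio under 0.48) made up 22.6%, 8.64% and 40.9% in the same order. Median GC content was 62% in members and in expressed promoters and 57% over all. For silent genes with no region no comparison was made, since 79.5% had a window and the minimum for such a check was 80%; members, at 80.1%, passed it narrowly. The 20 histone windows differed from the members as a whole, with a median GC content of 46%, TATAAA in 55% and CCAAT in 16 of 20. TATAAA occurred in 10.3% of member, 5.39% of expressed and 13.2% of all protein-coding windows. GGGCGG occurred in 63.8%, 73.5% and 48.8%, and AGGNGGC in 49.1%, 43.7% and 33.98%. Over all 32851 RefSeq windows of that length the shares were 13.6%, 35.7% and 29.4% for the 3 motifs. Searches covered both strands, and a match is not evidence of binding.

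Recovery, the share of regions that overlap a peak by at least 1 bp, was lower for silent than for expressed promoters in every list. In experiment 1 it was 68.7% against 76.3% with 10000 cells and 83.8% against 88.4% with 20000 cells. In experiment 2 it was 64.2% against 77.6% with 5000 cells, 89.1% against 93.6% with 10000 and 99.5% against 99.8% with 20000. In Omni-ATAC it was 34.3% against 46.6% with 5000 cells, 86.0% against 91.4% with 10000 and 99.9% against 100% with 50000. The mean difference, silent minus expressed, was -6.02 ± 4.91 percentage points (SD, n = 8 lists). An exact two-sided sign-flip permutation test over the 8 lists gave p = 0.00781, adjusted p = 0.0234 over 3 tests (Benjamini-Hochberg), with 8 of 8 lists lower. The lists also made the unified list and share cells and days, so p measures the spread between these lists.

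**Figure D4:**
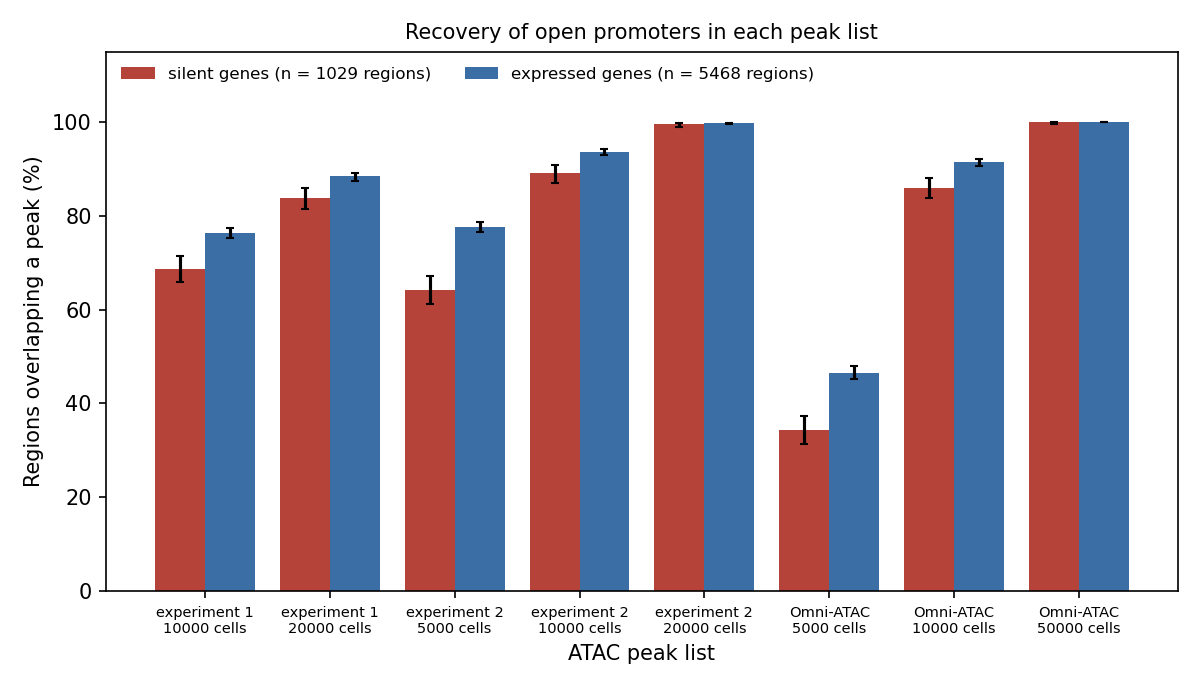
Share of open promoter regions overlapping a peak (y axis, %) in each of the 8 lists (x axis), for silent (red, 1029) and expressed (blue, 5468) genes. Bars are shares with 95% Wilson intervals over regions; the red bar is lower in every list, with the widest gaps at 5000 cells.

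Width moved with this difference. With the expressed regions weighted to the widths of the silent ones the mean difference was -2.78 percentage points, still lower in 8 of 8 lists (exact p = 0.00781). Mean recovery was 67.8% for silent and 69.3% for expressed regions narrower than 103 bp, 74.1% and 76.8% from there to 155 bp, 79.8% and 84.7% from there to 247 bp, and 90.8% and 93.7% for those of 247 bp or more. The gap was widest among regions of 155 to 247 bp, where recovery in experiment 2 with 5000 cells was 66.0% for silent and 79.6% for expressed regions. With only the widest peaks of every list, as many as in the shortest, the mean difference was -13.85 percentage points. Limiting silent genes to means below 0.1 CPM gave -9.66 percentage points. Within the 5 low-input lists alone the difference was -6.07 percentage points with exact p = 0.0625, the smallest that 5 lists allow.

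Silent promoters were recovered more often in lists from more cells, in 7 of 7 pairs of cell numbers within experiment 1, experiment 2 and Omni-ATAC. The exact two-sided permutation test over 72 arrangements gave p = 0.0278, the smallest it allows, and adjusted p = 0.0278. Longer lists came from more cells, from 9097 peaks for Omni-ATAC with 5000 cells to 95457 with 50000, so list length moved with cell number. With the 9097 widest intervals of every list the order was also 7 of 7 pairs (exact p = 0.0278). Omni-ATAC with 5000 cells kept its whole list there, in which 59.2% of intervals were 9 bp long. Equal numbers were thus not equal widths, so this does not separate cell number from the extent of a list. ATAC read depth is unknown and cannot be told apart from cell number. The gap to expressed promoters was also narrower with more cells in 7 of 7 pairs (exact p = 0.0278, adjusted p = 0.0278). Recovery was near 100% in experiment 2 with 20000 cells (99.5% against 99.8%) and in Omni-ATAC with 50000 cells (99.9% against 100%). Regions had to be covered by at least 3 of these lists, and a gap in percentage points closes near 100%. The test thus cannot tell cell number from this ceiling. The narrowing held in 6 of 7 pairs (exact p = 0.167) with the widest peaks alone, with peaks of at least 50 bp and with at least 50% of a region covered. That order depended on the scale: as log2 odds ratios, with 0.5 added to each count, the gap was narrower with more cells in 1 of 7 pairs (exact p = 0.167). The ratio of Omni-ATAC with 50000 cells, in 2 of those pairs, rested on 1 missed silent and 0 missed expressed regions, and the 2 ratios of experiment 1 were close to a tie (-0.56 in both).

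Of the member regions, 252 (24.5%) were in all 8 lists, against 38.5% of expressed regions and 18.6% of the 10687 regions with no gene start nearby, and 33 were in 3 lists. Regions with no gene start had lower recovery than silent promoters in each of the 8 lists, without a test. The gap was widest in experiment 1 with 10000 cells, at 63.2% against 68.7%. Similar gaps were found in Omni-ATAC with 5000 cells (28.8% against 34.3%) and with 10000 cells (80.5% against 86.0%). In experiment 1 with 20000 cells the values were closer, at 82.4% (81.7 to 83.1) against 83.8% (81.4 to 85.9). In experiment 2 with 10000 cells they were 88.1% (87.5 to 88.7) against 89.1% (87.1 to 90.9), and in both of these lists the intervals overlap. All 5 low-input lists held 487 member regions (47.3%, 44.3 to 50.4), against 61.7% (60.4 to 63.0) of expressed regions. With 5000 cells, 369 member regions (35.9%) were found in the low-input list and not in Omni-ATAC, and 61 (5.93%) in Omni-ATAC only, beside 35.2% and 4.13% of expressed regions. The overlaps were often small: in the Omni-ATAC list of 5000 cells the median overlap was 9 bp, the shortest interval of that list, and 145 bp in experiment 2 with 20000 cells. Both lists of experiment 2 with 10000 and 20000 cells, and neither of experiment 1, held 80 member regions (7.77%), beside 5.41% of expressed regions, and the reverse held for 1. The lists of experiment 2 were longer, with 29870 and 49508 peaks against 18877 and 27016.

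The 43 regions of developmental transcription factor genes were recovered at 51.2% (22 regions, 36.8 to 65.4) in experiment 2 with 5000 cells and 27.9% (12 regions, 16.7 to 42.7) in Omni-ATAC with 5000 cells, beside 64.2% and 34.3% of all member regions, and both intervals hold the value of all members. In experiment 2 with 20000 cells and Omni-ATAC with 50000 cells all 43 were found. Histone regions were recovered at 58.3% in Omni-ATAC with 10000 cells, beside 86.0% of all members, and at 95.8% in experiment 2 with 10000 cells, beside 89.1%. All 4 germ cell and meiosis regions were in every list.

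The mRNA of most members was too low to compare between libraries. Between 510 and 770 of the 980 genes had a count in a given library, and all members together held 0.0301% to 0.0455% of the counts. In edgeR's quasi-likelihood test on the 2 libraries of each experiment from 10000 and 20000 cells, 239 members passed the filter on low counts and 741 did not. Between experiments 4 of the 239 were called at an adjusted p under 0.05, beside 12.5% of all 12523 genes tested. In experiment 2, 2 members were higher and 2 lower, beside 5.75% and 6.76% of all genes. Membership required a low mean over the same libraries, so the counts available to this test were lower than in other genes. The 4 called members had 0 or 1 count in the fitted libraries of one experiment. They passed the filter only through the experiment where they were high, and the calls are given as a description of these libraries.

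Per2, a repressor of the circadian clock, had 0 CPM in both libraries of experiment 1, 0.967 and 1.37 CPM in experiment 2 with 10000 and 20000 cells, and 0 with 5000 cells. It was at least 5.58-fold higher in experiment 2 against a floor of 3 counts per library (edgeR adjusted p = 0.0106). Styx, a pseudophosphatase gene, had 0 CPM in experiment 1, 0.774 and 1.03 CPM in experiment 2 with 10000 and 20000 cells and 0 with 5000, at least 4.30-fold higher (edgeR adjusted p = 0.0214). The library from 5000 cells, outside the fit, thus shared the 0 of experiment 1 for both genes. Gm2762, a long noncoding RNA gene, had 1.60 and 0.803 CPM in experiment 1 and 0 in all of experiment 2, at least 7.07-fold lower in experiment 2 (edgeR adjusted p = 0.00923). Rgs9, a regulator of G protein signalling, had 37 counts in experiment 1 and 1 in the 2 fitted libraries of experiment 2, a ratio of 46.4 with a counting interval of 7.82 to 1880 (edgeR adjusted p = 0.0143). DESeq2 called 0 of the 239 members, and without single libraries edgeR called 0 to 3.

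Between 20000 and 10000 cells, edgeR called 0 of the 239 members, beside 0% of the 12523 genes tested. At an unadjusted p under 0.05 there were 9 of the 239 members and 101 of the 12523 genes tested. The share was larger among members, which was not tested. DESeq2 called 0 members.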

How the data were processed

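The members, gene classes and tests were chosen with earlier results of these data known. The authors deposited whole-number counts per gene for 5 mRNA libraries, and intervals without scores for 8 ATAC libraries and a unified list, all in mm10. Bowtie2 2.1.0, MACS2 2.1.1, STAR 2.5, Subread 1.5.0-p1, SAMtools 1.3.1 and bedtools 2.24.0 are named in the submitters' processing notes, without roles; thresholds are not given in the sources used here. CPM were computed here as counts scaled to a library total of 1e6. A gene start is the 5′ end of the deposited gene coordinates.

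Gene classes came from symbols; genes caught by a noncoding RNA pattern but protein-coding in RefSeq were moved to other genes after the data were seen. Genes were named by rule: per class, the 3 members in most lists, then by width; the 3 nearest the CPM limit on either side; and up to 10 called members per comparison. Counts were tested with edgeR 4.0.16 (TMM, filterByExpr) in R 4.3.3, with DESeq2 1.42.0 as an alternative, and recovery with exact permutation tests. These steps were tested on simulated data. The changes simulated for edgeR were in genes of higher level than any member, so they do not cover calls at the level of the members. Libraries of one experiment share a day per the series' design text, and their deviations correlated across 12523 genes (r = 0.436). The labels name no separate cultures, so p-values measure the spread between these samples. Wilson intervals (95%) and floors (3 counts) cover counting error only. Promoter and miRNA sequences came from RefSeq (GRCm38.p6). No sample column was left unused.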

Additional observations from a re-analysis of the deposited data

How the results depend on the processing

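The mean difference in recovery kept its direction in all alternatives tried. It was no longer past the threshold in the 5 low-input lists alone, which allow no smaller p (-6.07 percentage points, exact p = 0.0625). Leaving out 1 list at a time gave -6.87 to -4.97 percentage points. Limiting each list to its widest peaks, as many as in the shortest list, gave -13.85 percentage points. Rising recovery with cell number held in every pair when single lists were left out (5 to 6 pairs), though the smallest exact p then possible is 0.0556 to 0.0833. The narrowing gap with cell number gave 5 to 6 concordant pairs without single lists; it held in 6 of 7 pairs, and was no longer past the threshold (exact p = 0.167), with at least 50% of a region covered, with the widest peaks, and with peaks of at least 50 bp. On the log2 odds scale, added after the data were seen, it came to 1 of 7 pairs (exact p = 0.167), of which 2 rest on a list with 0 missed expressed regions, so the direction on that scale is not settled. In percentage points the narrowing cannot be told apart from the ceiling near 100%. The causes were not tested.

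Between experiments, DESeq2 called 0 members, and leaving out single libraries 0 to 3, where a lone library is assumed to vary like the others. Between cell numbers the fit with experiment as replicate block called 0 members, as did all other alternatives. The replicate block changed no call among the members. Depth limits the mRNA values: 3 counts stand for 0.147 to 0.219 CPM.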
